A study of Caenorhabditis elegans with 2 samples.

Results

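The subject here is the set of autosomal FKH-8 binding peaks whose summit lies inside an intron. Members were the reproducible ChIP-seq peaks (those that passed the deposited threshold on the irreproducible discovery rate, IDR) on an autosome, with the summit within a protein-coding gene but in none of its exons. Summits from 1000 bp upstream to 200 bp downstream of any coding gene's 5′ end, called the promoter window below, were left out. This gave 892 peaks, 22.6% of the 3955 autosomal peaks and part of 4963 reproducible peaks in all. The other autosomal peaks were 1846 in promoter windows, 1084 in distal intergenic sequence and 133 in exons. The material was whole, mixed-sex Caenorhabditis elegans larvae of the first stage (L1), collected 6 h after synchronization, in 2 biological replicates of 1 group. The strain, OP652, carries unc-119(tm4063) and the integrated transgene wgIs652, from which FKH-8 fused at its C terminus to GFP-FLAG is stably expressed. The labels' description names an anti-GFP antibody and their antibody field names fkh-8. Because whole animals were used, the cells a peak comes from cannot be told apart, and the tagged copy is present in addition to whatever the fkh-8 locus makes. No control values were used here, and with a single condition there is no contrast to test.

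FKH-8 is a forkhead transcription factor, of the winged-helix family, best known for its control of cilium genes in the worm's sensory neurons. Those neurons are the only ciliated cells of the animal, and the RFX factor DAF-19 drives ciliary genes in them through a sequence called the X-box. Most worm introns are very short. The long ones, often near the 5′ end of a gene, are known to hold enhancers and the promoters of shorter transcripts, and small non-coding genes also lie inside introns. Many worm transcripts are trans-spliced, so the true start of transcription can lie upstream of the annotated 5′ end.

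The sequences of 8 intronic peaks show the DNA behind the results that follow. They are the highest peak in a first intron (T28B11.1), the highest in a later intron (Y111B2A.12), a high peak beside a GA repeat (daf-14), 3 peaks that hold an X-box (unc-119, xbx-6 and daf-19) and 2 peaks that hold a forkhead consensus (fkh-7 and vhp-1). Each is 201 bases of the ce11 plus strand, 5′ to 3′, from the RefSeq genome, centred on the summit. The windows are chrV:10715883-10716083 (T28B11.1), chrIII:12612576-12612776 (Y111B2A.12), chrIV:10252408-10252608 (daf-14), chrIII:10903365-10903565 (unc-119), chrV:9705105-9705305 (xbx-6), chrII:10162836-10163036 (daf-19), chrIV:5604483-5604683 (fkh-7) and chrII:5336746-5336946 (vhp-1). Capitals mark matches, on either strand, to the forkhead consensuses GTAAACA and ATAAACA, the alternate forkhead core GACGC, the X-box and the repeat GAGAGA. Where 2 matches touch or overlap, the capitals run together.
T28B11.1: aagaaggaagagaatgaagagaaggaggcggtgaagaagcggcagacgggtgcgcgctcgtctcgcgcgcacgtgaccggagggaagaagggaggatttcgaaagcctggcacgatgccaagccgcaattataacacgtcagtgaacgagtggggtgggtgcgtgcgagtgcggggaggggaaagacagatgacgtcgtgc
Y111B2A.12: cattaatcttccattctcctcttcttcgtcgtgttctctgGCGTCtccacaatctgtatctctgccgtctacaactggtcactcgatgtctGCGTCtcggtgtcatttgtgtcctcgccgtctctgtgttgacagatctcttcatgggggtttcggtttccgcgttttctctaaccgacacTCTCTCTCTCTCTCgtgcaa
daf-14: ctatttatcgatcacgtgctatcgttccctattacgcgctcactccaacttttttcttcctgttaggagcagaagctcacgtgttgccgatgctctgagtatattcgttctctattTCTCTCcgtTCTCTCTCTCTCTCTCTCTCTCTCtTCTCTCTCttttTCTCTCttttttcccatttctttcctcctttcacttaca
unc-119: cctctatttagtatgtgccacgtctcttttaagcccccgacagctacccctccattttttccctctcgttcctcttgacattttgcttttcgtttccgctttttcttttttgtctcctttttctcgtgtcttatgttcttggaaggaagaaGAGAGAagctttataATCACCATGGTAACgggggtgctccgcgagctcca
xbx-6: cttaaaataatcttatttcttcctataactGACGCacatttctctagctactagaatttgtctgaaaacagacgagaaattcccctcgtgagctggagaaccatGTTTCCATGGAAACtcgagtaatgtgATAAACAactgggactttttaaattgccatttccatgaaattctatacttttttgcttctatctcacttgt
daf-19: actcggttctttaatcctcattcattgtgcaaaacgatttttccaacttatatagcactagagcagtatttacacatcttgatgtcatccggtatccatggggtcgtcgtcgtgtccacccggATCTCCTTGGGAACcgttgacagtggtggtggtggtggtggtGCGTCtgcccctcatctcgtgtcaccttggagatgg
fkh-7: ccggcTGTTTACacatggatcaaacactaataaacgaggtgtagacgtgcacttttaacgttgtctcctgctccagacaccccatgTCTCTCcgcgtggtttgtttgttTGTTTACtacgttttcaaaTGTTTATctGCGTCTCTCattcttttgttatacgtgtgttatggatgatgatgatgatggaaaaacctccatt
vhp-1: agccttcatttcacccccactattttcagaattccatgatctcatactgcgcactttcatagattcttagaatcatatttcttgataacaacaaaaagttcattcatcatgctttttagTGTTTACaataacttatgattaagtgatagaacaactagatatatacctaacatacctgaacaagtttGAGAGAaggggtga

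The T28B11.1 sequence holds none of the 5 marked patterns. Around the Y111B2A.12 summit GACGC lies 58 bp and 7 bp to the left, and a GA repeat begins further right. The daf-14 window is dominated by GA repeats, whose match centres lie from 18 to 64 bp right of the summit. The X-box centre lies 72 bp from the summit in unc-119, 10 bp in xbx-6 and 29 bp in daf-19. In fkh-7, itself a forkhead gene, GTAAACA occurs 12 bp right and 92 bp left of the summit and ATAAACA 31 bp right of it. In vhp-1 the GTAAACA match lies 22 bp right of the summit. A match is a description of the letters in a window and not a mapped binding site.

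The intronic peaks carried deposited signal values (column 7 of the peak format, scaling not stated) from 94.9 to 972, with a median of 159 and quartiles of 121 and 233. The median was 182 in promoter windows, 153 in distal intergenic sequence and 138 in exons. Among the 100 autosomal and X-linked peaks of highest signal, 12 were members, against 59 in autosomal promoter windows, 13 in distal sequence and 3 in exons. In peaks per Mb of sequence of each kind, introns had 35.1, promoter windows 100.3, distal intergenic sequence 55.9 and exons 6.86. Eligible intron here and below means autosomal intron outside every promoter window, 25.4 Mb in all. By chromosome the density was 29.4 peaks per Mb on I, 45.6 on II, 38.8 on III, 30.5 on IV and 34.0 on V.

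The members had passed a threshold on reproducibility between these same 2 replicates. The overlaps and the correlation given here are thus no independent check of them. All 892 overlapped a peak of replicate 1 and 891 a peak of replicate 2, in lists that include background regions. A stricter measure kept only the 4963 peaks of highest signal in each replicate: 735 members (82.4%, exact 95% interval 79.7 to 84.8%) overlapped one in both, against 85.3% of promoter, 82.3% of distal and 73.7% of exonic peaks. Across the members the 2 replicates' signals had a Spearman correlation of 0.819 (n = 891 peaks, which share their libraries, and 68 members share a replicate 1 peak with another member). Replicate summits lay a median of 23 bp apart. In 863 members (96.7%) both replicate summits fell in the same intron as the pooled summit, and among members in introns under 500 bp this held for 92 of 107.

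**Figure D1:**
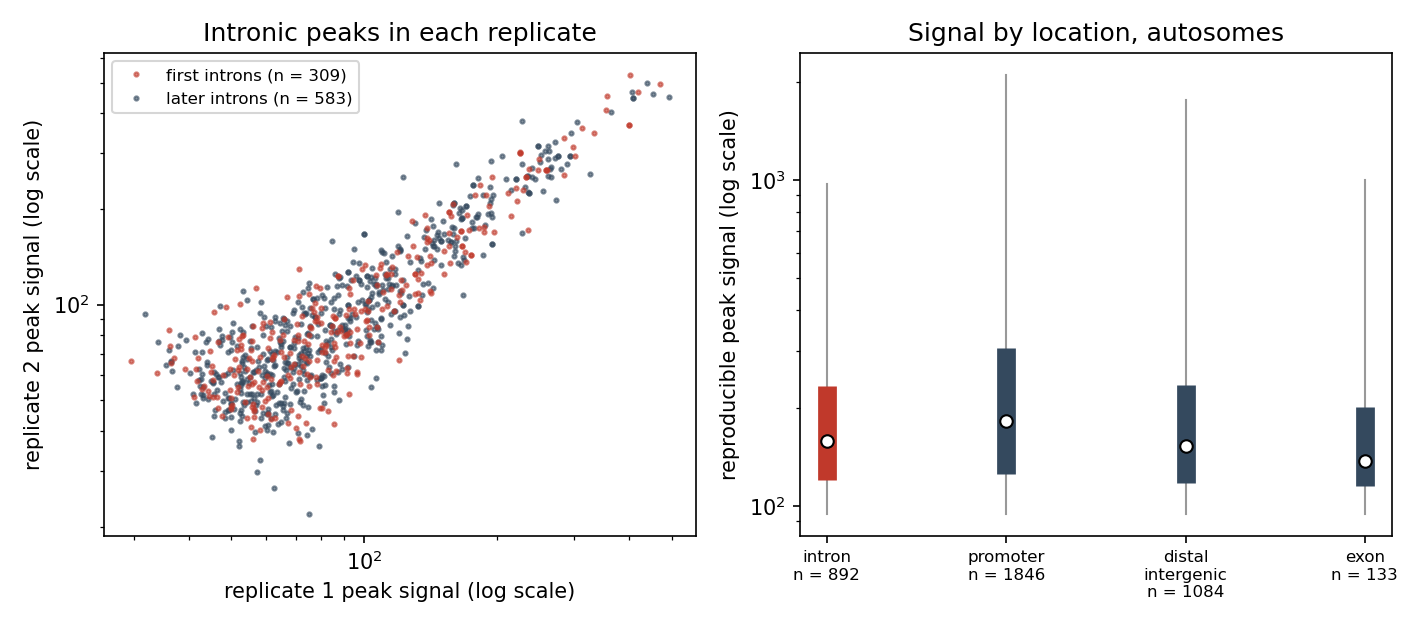
Left, signal of each intronic peak in replicate 1 (horizontal, log scale) and replicate 2 (vertical, log scale), coloured by first or later intron; each point is 1 peak, and both kinds lie along the same diagonal. Right, reproducible peak signal (log scale) by location, with the median (circle), quartiles (thick bar) and range (line); the intronic median of 159 lies between the promoter and distal medians of 182 and 153.

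The 15 highest members lay in 14 host genes. Signals of the reproducible list and of each replicate's list are on their own scales, so only values from the same list compare. T28B11.1 had a signal of 972 in the reproducible list, 469 in replicate 1 and 495 in replicate 2, in a first intron of 17091 bp. Its summit lies 734 bp from the nearer end of that intron, inside the ncRNA genes T28B11.18 and T28B11.4. It also lies in a window (1000 bp upstream to 200 bp downstream) at the 5′ end of another transcript of the host. Y111B2A.12 had 943 (492 and 451 in replicates 1 and 2), in its intron 4. Next was epg-9, whose product acts in autophagy, with 929 (438 and 501). The gene drap-1 had 926 (402 and 529), with its summit likewise inside ncRNA genes and in such a window. W06H8.6 had 910.1 (453 and 461) and gei-4 had 899.8 (418 and 467). These 6 peaks held their height in both libraries, with no replicate value under 402. The remaining hosts of the 15 highest peaks were Y71G12B.31, pqn-41 (with 2 peaks), T28F4.1, daf-14, ppfr-1, unc-119, ida-1 and unc-108. Of these, daf-14 encodes a SMAD protein of the dauer TGF-beta pathway and had 781 (399 and 369), ida-1 encodes a dense-core vesicle protein and had 676 (333 and 348), and unc-108 encodes the small GTPase RAB2 and had 674 (313 and 359). The lowest member in a first intron was in peli-1 (95.2; 50.1 and 48.3) and the lowest in a later intron in mpz-1 (94.94; 41.0 and 52.4). Just outside the deposited threshold, the intronic peaks of the pooled list in daf-4, vab-10 and pac-1 had 94.86, 94.84 and 94.76. At the rule's other edge, 24 members lay within 100 bp outside a promoter window, with a median signal of 157, and 13 intronic summits lay within 100 bp inside one, with a median of 147. In all, 90 intronic summits in promoter windows were not members, with a median of 189.

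The unc-119 peak needs its background beside it. It lies 824 bp from the annotated 5′ end, in the first of 4 introns, with a signal of 762 (354 in replicate 1 and 410 in replicate 2). unc-119 encodes a lipid-binding trafficking factor used throughout the nervous system. By its label the strain carries the tm4063 allele of this gene, and the part of the strain's construction in the signal was not tested.

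First introns held peaks at a higher density than later ones. Of the members, 309 (34.6%, exact 95% interval 31.5 to 37.9%) were in the first intron of their host, which makes up 20.8% of eligible intron bases, and 583 were in later introns. The density was 58.7 peaks per Mb in first introns and 29.0 in later introns. In replicate 1 it was 59.8 and 28.5 per Mb, and in replicate 2 it was 56.8 and 28.9, so the gap between the intron orders was far wider than that between the replicates. The share in first introns was 34.7 ± 1.06% over the replicates (SD, n = 2). Beyond the first intron the density did not fall steadily: it was 31.9 per Mb in intron 2, 29.8 in intron 3, 34.3 in intron 4 and 26.0 in intron 5 or later. Signal did not separate the orders, with a median of 158 in first introns and 159.6 in later ones.

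The difference between first and later introns was present at every distance from the host's annotated 5′ end that was examined. From 201 to 999 bp the density was 31.7 per Mb in first introns and 17.7 in later ones. From 1000 to 1999 bp it was 79.7 and 18.7, from 2000 to 3999 bp 82.4 and 23.8, and from 4000 to 7999 bp 117 and 36.1. At 8000 bp or more it was 151 in first introns (24 peaks) and 42.9 in later introns (191 peaks). Density thus did not decline away from the 5′ end. Distance is tied to intron length, since a base of a first intron lies far from the 5′ end mainly where that intron is long. In introns of 8000 bp or more the density was 112 per Mb in first and 91.4 in later introns. The distance classes mix introns of all lengths, and distance and length were not separated. The nearest 5′ end of any coding gene was the host's own for 648 members (72.6%).

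Peak density climbed with intron length. Eligible introns had a median length of 91 bp, while the 675 introns that held a peak had a median of 1899 bp and the median member lay in an intron of 2686 bp (quartiles 1029 and 5943). Since long introns offer more bases, the density is the fairer reading: it was 15.3 peaks per Mb in introns under 500 bp, 17.5 at 500 to 999 bp, 27.5 at 1000 to 1999 bp, 61.1 at 2000 to 3999 bp, 85.3 at 4000 to 7999 bp and 101 at 8000 bp or more. Replicate 1 gave 14.4 and 111 per Mb at the 2 ends of that range and replicate 2 gave 14.8 and 104. Of the 133 eligible introns of 8000 bp or more, 55 (41.4%) held a peak, against 107 of 57997 (0.184%) under 500 bp. First introns were denser than later ones in all 6 length classes, with the smallest ratios in the 2 longest: 21.6 and 14.3 per Mb under 500 bp, 25.5 and 15.7 at 500 to 999 bp, 47.0 and 23.0 at 1000 to 1999 bp, 90.9 and 50.7 at 2000 to 3999 bp, 92.0 and 82.1 at 4000 to 7999 bp, and 112 and 91.4 at 8000 bp or more. Signal did not follow length, with class medians between 152 and 166.

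**Figure D2:**
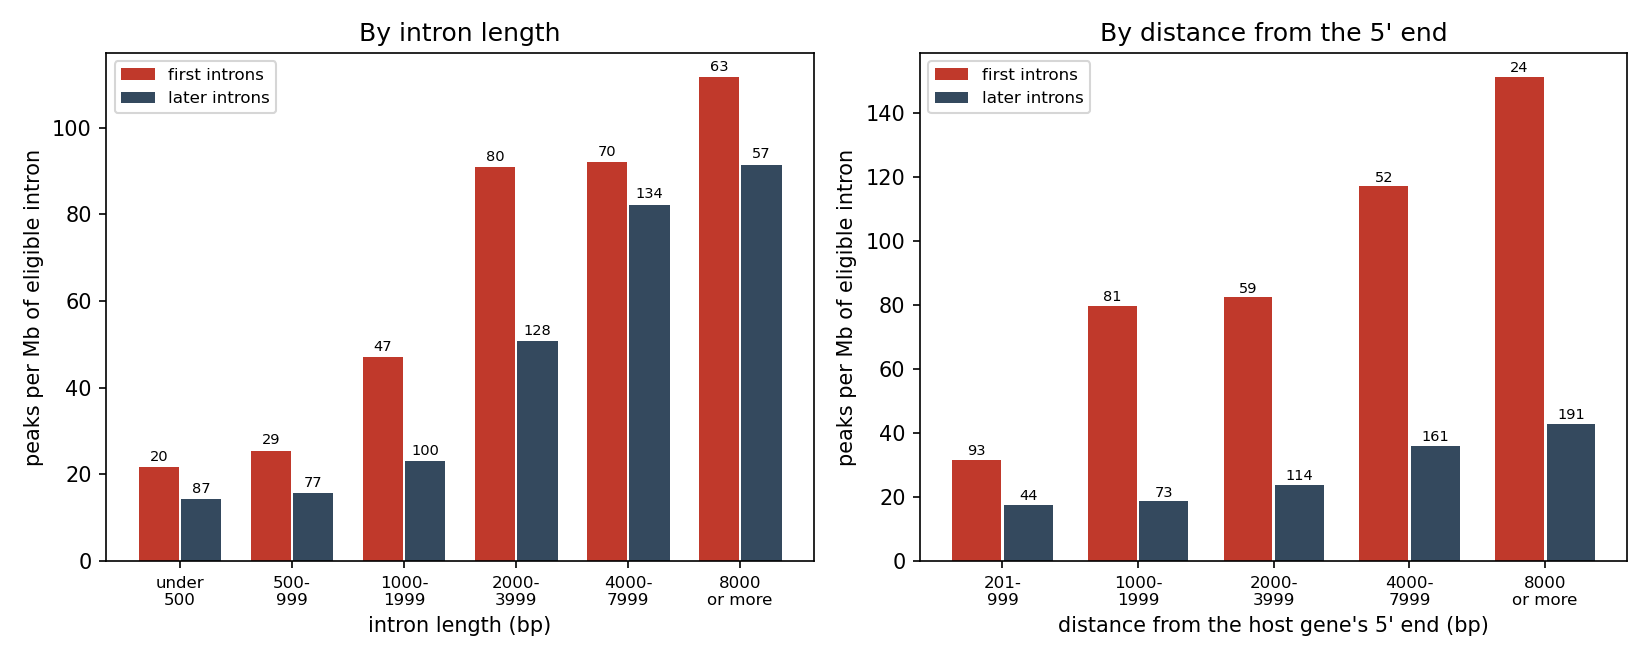
Peaks per Mb of eligible intron in first and later introns, by intron length (left) and by distance from the host gene's annotated 5′ end (right), in bp; numbers above the bars count peaks. First introns stand above later ones in every class, and the gap is wider by distance (151 and 42.9 per Mb at 8000 bp or more) than among the longest introns (112 and 91.4). The distance classes are not matched for intron length.

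At the extremes, the longest host intron was 18116 bp, in the cadherin gene hmr-1, and was followed by those of T28B11.1 (17091 bp) and crh-1 (16856 bp). The shortest were 43 bp in C30G7.5, 44 bp in F13G3.3 and 48 bp in the annexin gene nex-4. The peaks over these 3 short introns were 416 bp wide, as 88.0% of members were, and so extended far past the intron on both sides. In all, 655 members (73.4%) had the whole peak inside the intron. With introns cut into 5 equal parts from the 5′ to the 3′ end, the density was 25.8, 33.5, 40.9, 41.7 and 33.5 per Mb, lowest in the part next to the upstream exon.

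Part of the intronic signal lay near other annotated starts. A window of the same size around the 5′ end of another transcript of the host held 224 members (25.1%, exact 95% interval 22.3 to 28.1%) in 11.1% of eligible bases. The density was 79.8 peaks per Mb inside such internal windows and 29.6 outside them. In first introns it was 100.3 inside and 50.2 outside, and in later introns 70.4 inside and 24.6 outside. First introns were thus denser than later ones both near and away from internal starts. The median signal was 170.1 inside internal windows and 155 outside.

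Non-coding genes inside introns held 94 members (10.5%) in 2.05% of eligible bases. Transfer RNA genes, short genes transcribed by RNA polymerase III, held 25 summits in 0.0513% of the bases. That is 25 of 174 intronic tRNA genes (14.4%), 14 on the host's strand and 11 on the opposite strand, with signals from 109.9 to 257 and a median of 151. Each replicate gave nearly the same count, 25 in replicate 1 and 24 in replicate 2. Genes annotated as ncRNA held 69 summits in 0.965% of the bases and antisense RNA genes 10 in 0.131%. The snoRNA genes held 5 in 0.067%, lincRNA genes 3 in 0.0332% and pseudogenes 3 in 0.495%. None lay in piRNA, miRNA or snRNA genes, which make up 0.323%, 0.0233% and 0.0242% of the bases. A count of 0 of 892 allows a share of up to 0.413% by the exact interval, above each of these, so no conclusion is drawn from it. Whether the control carries the same signal at these genes was not tested.

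The 892 peaks fell in 552 host genes, 3.67% of the 15036 autosomal coding genes with eligible intron. Of the hosts, 370 had 1 peak and 182 had 2 or more, which together held 522 peaks. Hosts were more frequent among genes with more intron: 0.568% of genes with under 1000 bp of eligible intron, 2.69% at 1000 to 1999 bp, 7.00% at 2000 to 4999 bp, 18.3% at 5000 to 9999 bp and 35.8% at 10000 bp or more. Neighbouring peaks of 1 intron lay a median of 1146 bp apart (n = 217 pairs, lowest 199 bp). Ranking each replicate's own peaks gave 546 hosts in replicate 1, of which 504 were among the 552, and 534 in replicate 2, of which 502 were.

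Most peaks in a single gene were seen in crh-1, which encodes the CREB transcription factor. It held 12 peaks in 3 of its introns, 5 of them in the first, with signals only up to 216. The MAP kinase phosphatase gene vhp-1 held 10 in 5 introns, with signals up to 448 (221 in replicate 1 and 233 in replicate 2). Next came pqn-41, encoding a glutamine-rich protein, with 8 peaks in 2 introns and signals up to 865 (407 and 448), and daf-16, encoding the FOXO factor, with 8 in 2 introns and signals up to 319.9 (119 and 196). The phosphatase 4 regulatory subunit gene ppfr-1 held 7, up to 777 (364 and 404), tied in number with let-526 and daf-5 and placed before them by summed signal. The number of peaks and their height did not go together in these genes: crh-1 had the most peaks and the lowest maximum. Chosen after its values were seen, daf-5, a dauer regulator, held its 7 peaks in its first intron alone, the most in any 1 intron.

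A peak in the gene's own promoter window was present for 13.2% of all eligible genes, for 136 of the 552 hosts (24.6%, exact 95% interval 21.1 to 28.5%) and for 12.8% of genes without an intronic peak. By intron content the hosts had the higher share in 4 of 5 classes. Among genes with 2000 to 4999 bp of eligible intron, 32.0% of hosts and 14.3% of other genes had a promoter peak. At 5000 to 9999 bp it was 29 of 145 hosts and 16.1% of other genes. Among genes with 10000 bp or more it was 15.2% of hosts (exact 95% interval 9.67 to 22.3%) and 17.8% of other genes, a share inside the hosts' interval. Of the 138 hosts in this last class, 117 had no peak in their promoter window, a share much like that of the other genes there.

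Gene classes were read from hand-made lists, each a sample of its class and not the whole of it, so a count below covers the listed genes only. Of 56 eligible genes over the cilium lists, 5 were hosts (8.93%, exact 95% interval 2.96 to 19.6%), with 6 peaks or 42.0 per Mb of their intron, against 3.67% and 35.1 per Mb over all eligible genes. The hosts were the 3 motor genes klp-11 and klp-20 (kinesin-II subunits) and osm-3 (the homodimeric ciliary kinesin), the TRPV channel gene osm-9, and xbx-6. Outside the lists the ciliary kinesin gene klp-6, named after its values were seen, held 2 peaks up to 225. None of the 12 eligible genes of the intraflagellar transport particle, the 8 of the BBSome (the complex that organizes ciliary cargo) or the 12 of the transition zone at the cilium base was a host. With so few genes and so little intron (0.0191, 0.0169 and 0.0285 Mb), 0 hosts allows shares up to 26.5%, 36.9% and 26.5%.

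The ciliary peaks were of moderate height. In xbx-6 the stronger peak had a signal of 264 (168 in replicate 1 and 108 in replicate 2), and the weaker had 205 (87.6 and 121). The order of the 2 xbx-6 peaks thus differed between the replicates. The peak in klp-11 had 179.7, that in klp-20 147, that in osm-9 135 and that in osm-3 132, all below the members' upper quartile of 233. Both klp-11 and osm-9 also had a peak in their promoter window. The fkh-8 gene itself held no peak in its 659 bp of eligible intron. In daf-19, 4 introns held a peak each, with signals of 199 (109 and 90.0) in intron 5, 179 (103 and 77.3) in intron 2, 139 (73.7 and 66.0) in intron 3 and 102 (60.2 and 45.3) in intron 8, and its promoter window was bound too. The 4 daf-19 peaks kept this order of height in both replicates.

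Lists of neuronal genes held higher shares of hosts than the 3.67% of all eligible genes, which is not matched for intron content. The lists were not tested against each other. Of all genes with 5000 to 9999 bp of eligible intron, 18.3% were hosts. The ion channel list (19.4%, median 6500 bp per gene) and the axon guidance list (15.6%, 6512 bp) stood near that share. The sensory list (median 1795 bp) stood above the 2.69% at 1000 to 1999 bp. The synapse list (4814 bp) stood above the 7.00% at 2000 to 4999 bp. Of 20 eligible sensory signalling genes, 7 were hosts with 12 peaks (148 per Mb of intron): the strongest were tax-6, encoding calcineurin, with 479, pkc-1, encoding a protein kinase C, with 5 peaks up to 368, rgs-3, a regulator of G protein signalling, with 234, and egl-4, encoding the cGMP-dependent kinase, with 162. Of 25 synapse and neurosecretion genes, 7 were hosts with 11 peaks (59.5 per Mb), led by ida-1, then rab-3, which encodes a synaptic vesicle GTPase, with 539, syd-1 (327) and cla-1 (210.3), both of the presynaptic active zone. The axon guidance and adhesion list had 5 hosts of 32 but, with much intron, only 25.9 peaks per Mb, against 35.1 over all eligible intron. Its hosts were led by unc-119, sax-7, an L1-type adhesion gene, with 233, hmr-1 with 176 and ptp-3, a receptor phosphatase gene, with 124. The ion channel list had 6 hosts of 31 and 40.9 peaks per Mb, the highest of them the potassium channel gene kqt-3 with 224, followed by unc-68, the ryanodine receptor gene, with 121, trp-4 with 110.1 and the Shaker-type gene shk-1 with 107. Channel genes outside the list reached higher, among them trpa-1 with 400.4 and kcnl-4 with 324, both named after their values were seen.

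Among the lists of regulators, that of protein kinases and phosphatases had the most hosts, 13 of 36 with 35 peaks (116 per Mb). That is 36.1% (exact 95% interval 20.8 to 53.8%), in genes with a median of 5584 bp of eligible intron. Of all genes with 5000 to 9999 bp, 18.3% were hosts, and of those with 10000 bp or more 35.8%. For the other lists here the reference is the 3.67% and 35.1 peaks per Mb of all eligible genes, not matched for intron content. The kinase list does not hold vhp-1 and ppfr-1, described above, or the kinase gene mnk-1, which had 5 peaks up to 557. The highest within the list were lit-1, a Nemo-like kinase gene, with 5 peaks up to 569, mpk-1, encoding ERK, with 535, tax-6, and unc-43, encoding CaMKII, with 6 peaks up to 381. The homeobox and neuronal identity list had 5 hosts of 45 (54.5 per Mb), with daf-19 followed by the LIM homeobox gene lin-11 at 162, egl-27 at 142 and the ETS-type gene ast-1 at 141. These 5 hosts are not all homeobox genes: daf-19 and ast-1 are among those that encode factors of other families. Over all 45 eligible genes with the homeobox prefix ceh, counted after the hosts were seen, 0 were hosts. They have 0.0825 Mb of eligible intron, and the exact 95% interval allows a share up to 7.87%. Of 11 eligible forkhead genes 2 were hosts, daf-16 and fkh-7, the second with 372 (167 in replicate 1 and 199 in replicate 2) at the peak shown above and 139 at another. The nuclear receptor list had 2 hosts of 19, nhr-66 (302) and nhr-46 (239). Over all 242 eligible genes with the nhr prefix, counted after the hosts were seen, 13 were hosts (5.37%, exact 95% interval 2.89 to 9.01%), with the highest signal, 597, in nhr-138. The chromatin list had 1 host of 31 (3.23%, near the 3.67% of all eligible genes), the SWI/SNF subunit gene pbrm-1, with 596. Chromatin genes outside the list were hosts too, among them let-526, with 7 peaks up to 489.5, and zfp-1, with 5 up to 634, both named after their values were seen. The Wnt, Notch, TGF-beta and insulin list had 5 of 41, led by daf-14, then the kinase gene akt-1 (240.5), the insulin receptor gene daf-2 (235), and lag-1, which encodes the Notch effector (174). The RNA-binding list had 5 of 35, led by lin-28, a developmental timing gene (523), larp-1 (425), ain-2, of the microRNA effector complex (229), and the argonaute gene alg-2 (117).

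No host was found among the 26 eligible genes listed for muscle structure, 20 for epidermis and cuticle, 14 for intestine or 28 for germline, and ribosomal protein genes had 1 of 34, rpl-19, with 159. For muscle the 0 covers 0.135 Mb of intron and allows a share of hosts up to 13.2% by the exact interval. The epidermis, intestine and germline lists hold little intron (0.0705, 0.0119 and 0.0232 Mb), and 0 hosts allows up to 16.8%, 23.2% and 12.3%. All 4 ranges hold the 3.67% of all eligible genes, a share not matched for intron content. The muscle list has a median of 2680 bp of eligible intron per gene, and 7.00% of all genes with 2000 to 4999 bp were hosts. With so few genes the counts of 0 cannot decide whether these lists differ from other genes, and no conclusion is drawn from them. Genes used in such tissues were hosts elsewhere: the ryanodine receptor gene unc-68 is one, and of all 98 eligible genes with the collagen prefix col, counted after the hosts were seen, 3 were hosts (3.06%, exact 95% interval 0.636 to 8.69%), namely col-85 with 321, col-72 with 284 and col-99 with 172. Lists differ in intron content, from a median of 57.5 bp per gene for ribosomal proteins to 6512 bp for axon guidance, so the share of hosts and the density per Mb order them differently.

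**Figure D3:**
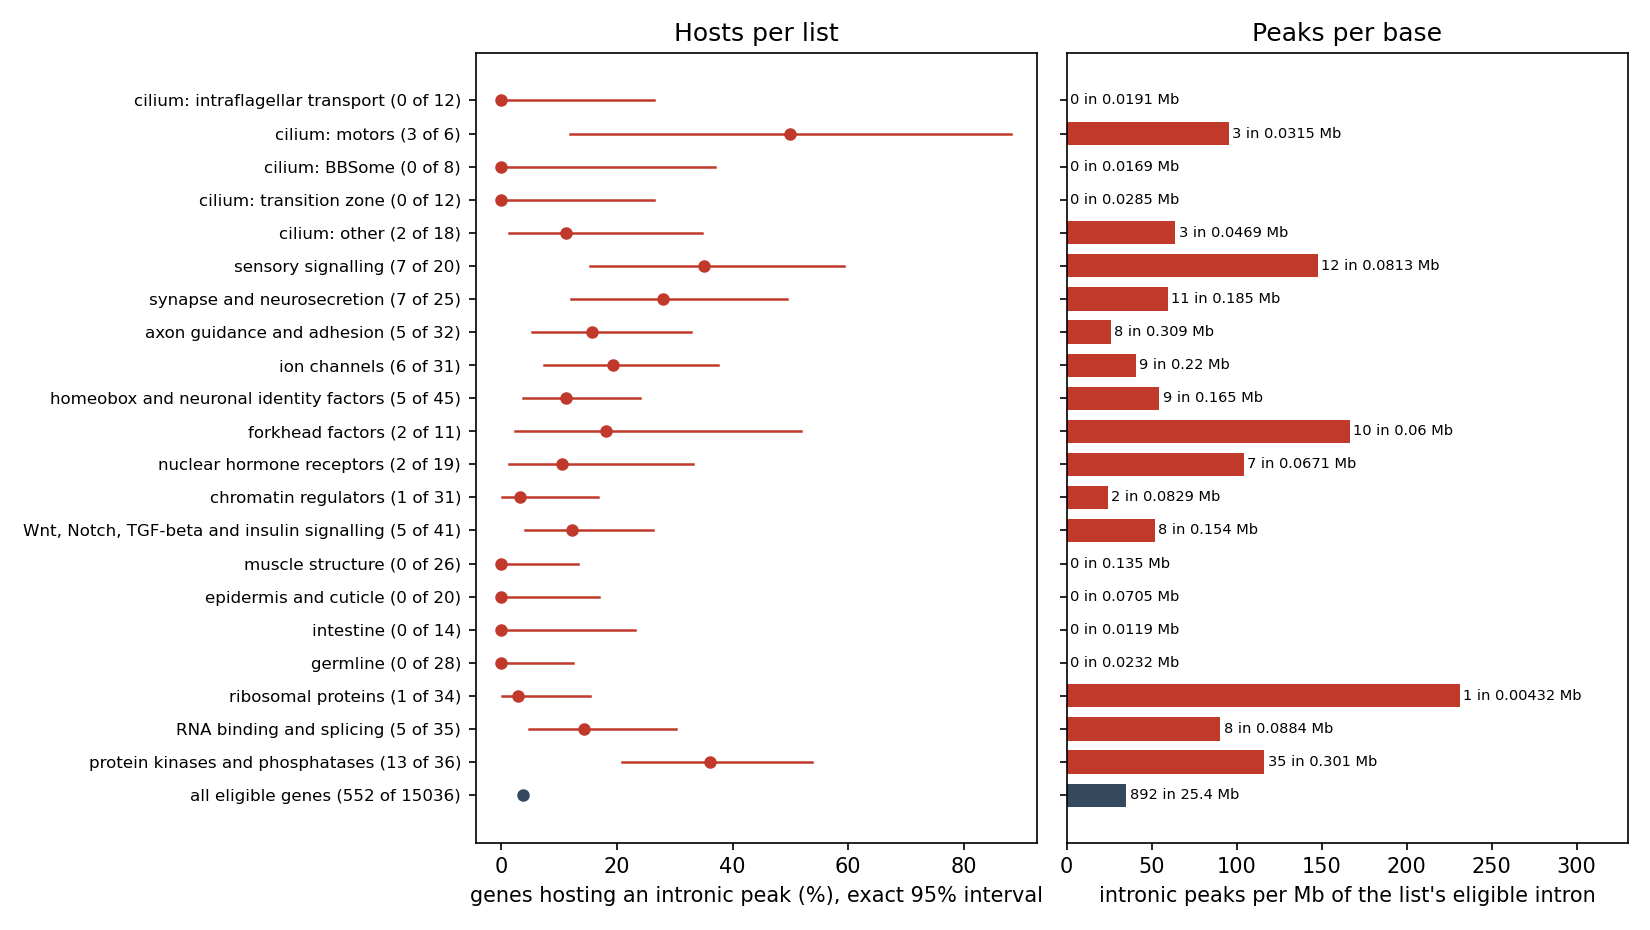
Left, percent of each list's eligible genes that host an intronic peak, with the exact 95% interval and the counts in the labels; right, intronic peaks per Mb of the list's eligible intron, with the number of peaks. Among the listed genes, motors (3 of 6), protein kinases and phosphatases (13 of 36) and sensory signalling (7 of 20) have the highest shares of hosts, and several lists have none; all eligible genes (bottom) stand at 3.67% and 35.1 per Mb. The ribosomal protein bar rests on 1 peak.

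The DNA under intronic summits was richer in G and C than introns are: the median was 42.3% in the 201 bp around the summit and 33.3% over 126295 windows of that length tiled over eligible introns. Of the patterns searched on both strands, GAGAGA was the most unequal. It occurred in 344 members (38.6%, exact 95% interval 35.4 to 41.8%) and in 8.41% of all windows, a ratio of 4.58 (4.52 in replicate 1 and 4.70 in replicate 2). GACGC occurred in 247 members (27.7%) and 10.8% of windows, a ratio of 2.57. The E-box CANNTG, which basic helix-loop-helix proteins recognize, was in 61.3% of members and 45.6% of windows. The GATA sequence AGATAA was in 9.19% and 10.9%, and the homeodomain sequence TAATTA in 8.07% and 9.73%.

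The classical forkhead consensus was scarce. GTAAACA occurred in 22 members (2.47%, exact 95% interval 1.55 to 3.71%), against 1.88% of windows, and ATAAACA in 44 (4.93%), against 4.24%. The ratio for GTAAACA was 1.31, and it was 1.68 in replicate 1 and 1.81 in replicate 2, each from its own peaks. Across the members GTAAACA went with signal: it was in 4.04% of the 297 members of highest signal, 3.03% of the 297 in the middle and 0.336% of the 298 of lowest signal. ATAAACA showed less of that (6.06%, 4.38% and 4.36%), while GACGC was in 37.7%, 23.9% and 21.5% and GAGAGA in 47.8%, 37.7% and 30.2%. GC content moved the same way, with medians of 45.8%, 41.8% and 39.3%, and its part in these orders was not tested.

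Base composition was therefore set beside each pattern. Among members with under 35% GC, 12 of 177 held GTAAACA (6.78%, exact 95% interval 3.55 to 11.5%), against 1.92% of windows of that composition. At 35 to 45% GC the shares were 1.88% of members and 1.89% of windows, and at 45% or more 0.875% and 1.45%. GACGC was in 14.1%, 19.1% and 44.0% of members over these 3 classes, against 6.09%, 15.2% and 29.4% of windows. GAGAGA was in 11.9%, 34.1% and 57.1% of members, against 5.64%, 11.5% and 17.3% of windows. Both sequences were thus in a higher share of members than of windows of each composition, by least for GACGC at 35 to 45% GC. There the windows' share of 15.23% lay just inside the members' exact 95% interval of 15.22 to 23.5%. ATAAACA was in 7.34%, 5.65% and 2.92% of members, against 5.02%, 3.35% and 1.89% of windows. CANNTG was in 61.6%, 65.6% and 56.6%, against 40.0%, 54.1% and 51.8%. AGATAA was in 16.9%, 8.33% and 6.12%, against 12.3%, 9.31% and 6.03%. For TAATTA the shares were 20.9%, 7.26% and 2.33%, against 12.4%, 6.38% and 3.05%. Its lower share over all members thus did not hold under 35% GC, where the members' exact 95% interval was 15.2 to 27.6%.

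The X-box was found in 29 members (3.25%, exact 95% interval 2.19 to 4.64%) and in 1.58% of windows, a ratio of 2.06, with 2.07 in replicate 1 and 1.73 in replicate 2. By GC class the shares were 2.82%, 3.76% and 2.92% of members, against 1.75%, 1.38% and 1.05% of windows. It was spread evenly over signal, in 3.03%, 3.70% and 3.02% of the highest, middle and lowest members. By distance from the summit there were 0.247 matches per kb within 25 bp (11 matches), 0.112 at 75 to 100 bp, 0.0448 at 100 to 150 bp (4 matches), 0.112 at 150 to 200 bp and 0.107 at 400 to 500 bp, against 0.0896 per kb over all eligible introns. GACGC declined over the same range, with 2.38 per kb within 25 bp and 0.701 at 400 to 500 bp, against 0.547 over introns. GAGAGA was densest beside the summit and not on it, at 6.43 per kb from 25 to 50 bp and 4.89 within 25 bp, against 0.643 over introns, where overlapping matches of 1 repeat are each counted. GTAAACA had 4 matches within 25 bp, or 0.0897 per kb, against 0.107 over introns. TAATTA was thinner at the summit than over introns, at 0.359 and 0.669 per kb. These distance profiles were not split by GC class.

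**Figure D4:**
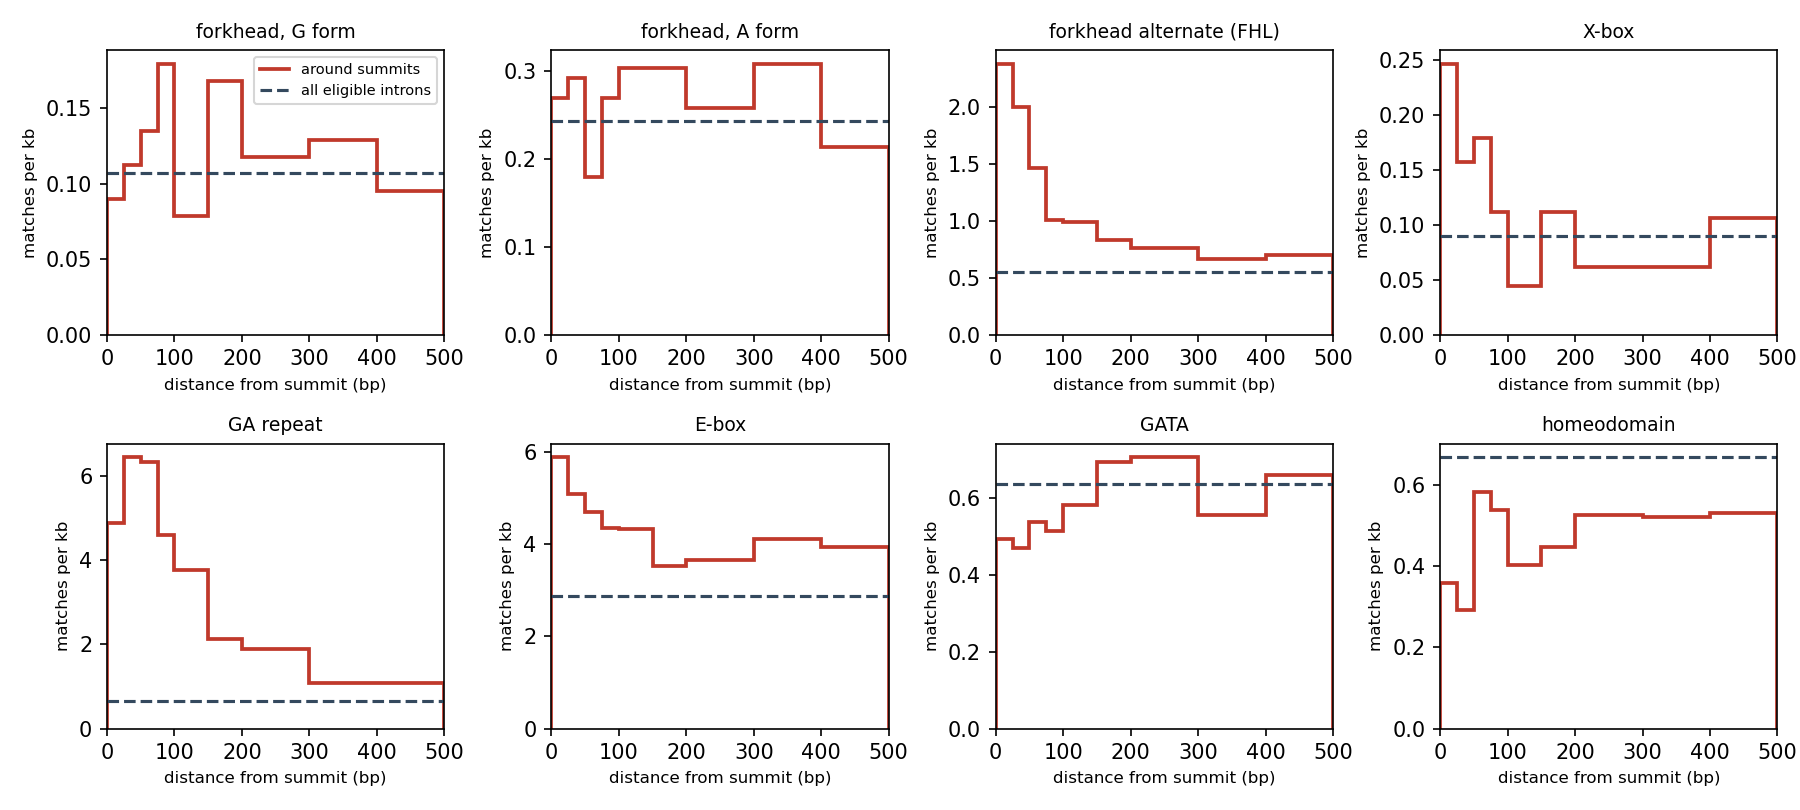
Matches per kb to 8 sequence patterns by distance from the summit in bp, on both sides together, around the 892 intronic peaks (solid) and over all eligible introns (dashed). The panels titled forkhead, G form and A form show GTAAACA and then ATAAACA, and the panel of the alternate forkhead core shows GACGC. That core and the X-box are highest within 25 bp of the summit (2.38 and 0.247 per kb), and the G form lies near its level over introns there.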

How the data were processed

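Peaks were analysed from 4 lists on ce11: 1 per replicate, 1 of both replicates pooled and 1 of reproducible peaks. The authors deposited each peak with a signal value of unstated scaling, a −log10 q-value and the summit's offset from its start. Of the members, 82.1% had reached the upper limit of the deposited −log10 q-values, so peaks were ranked by signal. Aligner, caller and IDR cutoff: not given in the sources used here. The lists on ce10 and the control were not used here. Depth is unknown, and intervals (exact Clopper-Pearson, 95%) cover counting error only.

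Gene models were from Ensembl release 115. Exons of all transcripts of a gene were merged and the gaps between them numbered from its 5′ end as introns, so a gap can differ from an intron of any single transcript. A summit in introns of 2 genes (12 members) was given to the shorter intron. Values per replicate used as many peaks of highest signal as the reproducible list holds, under the same rule. Overlap meant 1 shared base or more. Motif windows reached 100 bp on each side of the summit and, over introns, were tiled without overlap. The classification, numbering and motif search were checked on simulated data. Python 3.11.15 with numpy 2.4.6, pandas 2.3.3, scipy 1.17.1 and matplotlib 3.10.9 was used.

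No test was run, since the design has 1 group and neither peaks nor genes are replicates. The members, gene lists and patterns were chosen with earlier results of these data known. Named genes were the hosts of the 15 highest peaks, the 5 hosts with the most peaks (ties by summed signal), every host on the cilium lists, up to 4 hosts of each other list, fkh-8 and daf-19, and the extremes of intron length and signal. Genes named outside this rule are marked as such where they appear.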

Additional observations from a re-analysis of the deposited data

How the results depend on the processing

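Definitions set the share in first introns more than replicates did. It was 31.6% with a wider promoter window (2000 bp upstream to 500 bp downstream), 32.9% with windows at every transcript's 5′ end and 37.4% when the whole peak had to lie in the intron. Numbered in the transcript with the longest coding sequence, it was 30.9%. That is 233 of the 753 members that lay in an intron of that transcript, and not a share of all 892. The ratio of density in first to later introns, added after seeing the data, was 2.35 with the wider window and 1.96 to 2.09 when a replicate was left out. Under the same changes the median host intron was 3140.5 bp (wider window), 3262.5 bp (every transcript), 3736 bp (whole peak) and 2768 bp (no exon of any gene), and the median signal 155 (every transcript), 157 (no exon of any gene) and 165 (whole peak). Keeping only the 0.5 of reproducible peaks with the highest signal left 427 members in 306 hosts, with a median intron of 2655 bp and a median signal of 236.

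Leaving out either replicate gave 881 to 889 peaks, 33.9 to 35.4% in first introns, a median intron of 2686 to 2699 bp, a median signal of 78.8 to 80.5 on the replicates' own scale, and 534 to 546 hosts.

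For motif matches, a window of 50 bp on each side gave ratios of members to intron windows of 1.03 for GTAAACA, 3.59 for GACGC, 5.59 for GAGAGA, 1.57 for CANNTG, 0.767 for AGATAA and 0.565 for TAATTA. With 200 bp they were 1.96 for GACGC, 1.46 for the X-box, 3.11 for GAGAGA, 1.18 for CANNTG and 1.01 for AGATAA, which turned its direction. Depth is unknown, signal compares only within a list, 2 replicates give a coarse SD, and no control was used.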
